A study of Mus musculus with 39 samples.

Results

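The genes studied here encode 10 proteins of the nuclear envelope, Sun1, Sun2, Lmna, Lmnb1, Lmnb2, Syne1, Syne2, Emd, Lbr and Tmpo, and were chosen by name from the 24421 genes of the nuclear RNA tables. Sun1 has a particular place among them, because the nuclear tag of the mouse line is itself made of Sun1, and the reads counted for the gene may therefore come from the gene, from the transgene, or from both. Nuclei were taken from the neocortex of adult mice of both sexes. They carried the Arc allele creERT2(TG/WT) and, at R26, the allele CAG-Sun1-sfGFP-Myc in the state M/WT or M/M. In these animals the Arc promoter drives a tamoxifen-dependent Cre recombinase, and recombination lets the ubiquitous CAG promoter express the Sun1-sfGFP-Myc fusion on the nuclear membrane. Every mouse received tamoxifen before a social interaction test, so the compared groups share the mouse line, drug and stimulus. Which state of the R26 allele each batch carried is not given in the labels. They differ in how sfGFP+ nuclei were isolated. FANS sorts them by flow cytometry, and INTACT captures them with antibody-coated magnetic beads that bind the tag. The labels call the material activated neuronal nuclei, and no library without the tag was analysed here, so that the level of Sun1 without a transgene was not measured.

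Nuclear RNA was available from 31 libraries in 3 batches, each batch being a separate biological source. FANS and INTACT gave 4 libraries each in batch 1, 7 against 4 in batch 2, and 7 against 5 in batch 3. ATAC-seq, which maps open chromatin, was available from 6 libraries, 3 per technique, all technical replicates of 1 source. No label says that libraries of 1 batch came from separate animals, so the p-values below measure the spread between these libraries, which may be technical. By the study's description, RNA integrity was higher in batch 1 than in the other batches. RNA libraries held 4205665 to 11028713 reads on genes. In batch 1 the INTACT libraries were the deeper ones, with 8621143 to 11028713 reads against 4853224 to 6066759 in FANS. Some markers of other cell types differed between the techniques. A gene was called where limma gave an adjusted p under 0.05 together with a difference of 1.5-fold or more. In batch 1, 6 of 7 oligodendrocyte and 4 of 7 astrocyte markers were called higher in INTACT, beside 4.03% of all genes. In batch 2 these counts were 4 and 1, beside 0.0941% of all genes. The astrocyte markers of batch 2 ran from -0.45 to 0.93 on the log2 scale, so that they differed in direction. In batch 3 limma called 0 of either, beside 0.0139% of all genes called higher. At an unadjusted limma p under 0.05 there were 2 and 0 markers, beside 13.7% of all genes. The summed oligodendrocyte level was 5744 to 7198 normalized counts in FANS and 9426 to 9932 in INTACT of batch 1. The summed level of the 6 excitatory neuron markers was 9451 to 9640 and 9136 to 9586 in the same libraries. Of these markers, 2 were higher and 2 lower in INTACT at a limma adjusted p under 0.05, beside 18.6% and 17.5% of all genes. The differences of the 6 ran from -0.37 to 0.50 on the log2 scale. Of the inhibitory neuron markers, 3 of 6 were called higher in INTACT of batch 1, beside 4.03% of all genes. There, too, 1 of 4 microglia markers tested was called lower in INTACT, beside 3.94% of all genes. The summed microglia level was 92.6 to 119 in FANS and 64.9 to 81.7 in INTACT. The 4 markers ran from -1.01 to 1.09 on the log2 scale, with a median of -0.04, so that they differed in direction. Called higher in that batch were 1 of 2 oligodendrocyte precursor markers and the 1 vascular marker tested, beside 4.03% of all genes. The share of reads outside gene features also separated the techniques, at 79.4 to 81.7% in FANS and 71.3 to 72.7% in INTACT of batch 1 and 79.4 to 81.6% and 77.4 to 78.9% in batch 2, whereas it overlapped in batch 3. The part of these shifts in the differences below was not tested, and in bulk nuclei a change in cell types cannot be told apart from a change of RNA per nucleus.

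The nuclear envelope is a double membrane lined on its inner face by the lamina, a meshwork of A-type lamins, encoded by Lmna, and B-type lamins, encoded by Lmnb1 and Lmnb2. SUN proteins span the inner membrane, bind lamins on the nuclear side, and hold nesprins, encoded by Syne1 and Syne2, in the space between the membranes. The nesprins span the outer membrane and attach to the cytoskeleton, and the bridge made by both families is known as the LINC complex, which positions nuclei during neuronal migration. Emerin (Emd) and the lamina-associated polypeptide thymopoietin (Tmpo) belong to the LEM domain proteins of the inner membrane, which bind chromatin through the barrier-to-autointegration factor. The lamin B receptor (Lbr) tethers peripheral heterochromatin to the lamina and also has sterol reductase activity.

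The promoters are shown first, and that of Sun1 belongs to the gene and not to the CAG-driven transgene. Each of the 10 genes had an ATAC peak within 3 kb of an annotated start site, and the highest of these is called its promoter peak below. The sequences are from RefSeq on GRCm38.p6, the assembly known as mm10, and run from 250 bases before the start site to the end of the first 50 transcribed bases, 5′ to 3′ on the strand of the gene. RefSeq promoters were found for 9 of the 10 genes, all but Lmnb1, and numbered 15. Capitals mark the letters GGGCGG of an SP1 box and CCAAT of an NFY box on either strand, so that the reverse forms read CCGCCC and ATTGG. Sun1 and Sun2 are shown as the pair compared throughout, Lbr and Syne2 as the genes with the highest and the lowest mean promoter peak in FANS, and the internal Sun1 start site as a contrast to the first one.
Sun1, first start site, chr5:139200387-139200686, plus strand: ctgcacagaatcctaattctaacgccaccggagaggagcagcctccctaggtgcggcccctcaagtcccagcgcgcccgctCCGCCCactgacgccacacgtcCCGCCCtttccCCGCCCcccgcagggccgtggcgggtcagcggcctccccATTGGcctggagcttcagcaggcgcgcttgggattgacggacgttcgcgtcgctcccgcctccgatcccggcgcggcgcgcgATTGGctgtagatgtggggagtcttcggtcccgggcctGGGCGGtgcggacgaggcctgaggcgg
Sun1, internal start site, chr5:139214908-139215207, plus strand: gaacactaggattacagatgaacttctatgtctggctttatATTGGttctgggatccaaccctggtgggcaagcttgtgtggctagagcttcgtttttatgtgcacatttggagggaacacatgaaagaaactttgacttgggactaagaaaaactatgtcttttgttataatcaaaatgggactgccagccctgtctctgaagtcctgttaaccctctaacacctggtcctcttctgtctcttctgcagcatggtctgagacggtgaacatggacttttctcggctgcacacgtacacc
Sun2, chr15:79742487-79742786, minus strand: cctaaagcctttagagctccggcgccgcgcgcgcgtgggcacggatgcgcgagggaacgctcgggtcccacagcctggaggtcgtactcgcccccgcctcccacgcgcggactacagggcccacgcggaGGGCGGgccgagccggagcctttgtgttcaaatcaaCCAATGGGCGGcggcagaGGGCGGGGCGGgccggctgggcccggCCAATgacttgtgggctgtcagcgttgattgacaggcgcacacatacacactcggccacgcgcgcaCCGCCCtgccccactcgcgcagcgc
Lbr, chr1:181842352-181842651, minus strand: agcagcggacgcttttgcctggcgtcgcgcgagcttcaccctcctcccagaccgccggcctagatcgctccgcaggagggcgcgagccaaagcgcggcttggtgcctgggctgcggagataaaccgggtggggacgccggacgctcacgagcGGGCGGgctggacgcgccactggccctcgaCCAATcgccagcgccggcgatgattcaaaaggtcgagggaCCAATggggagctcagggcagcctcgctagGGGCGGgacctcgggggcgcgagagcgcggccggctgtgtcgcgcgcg
Syne2, chr12:75818068-75818367, plus strand: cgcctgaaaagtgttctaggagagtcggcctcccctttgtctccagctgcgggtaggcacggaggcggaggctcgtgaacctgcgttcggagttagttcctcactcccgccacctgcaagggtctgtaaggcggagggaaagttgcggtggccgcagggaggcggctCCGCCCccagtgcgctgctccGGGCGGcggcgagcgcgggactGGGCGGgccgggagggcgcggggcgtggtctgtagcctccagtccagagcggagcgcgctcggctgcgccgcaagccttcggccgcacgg

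The first Sun1 promoter held 36 CpG dinucleotides and the Sun2 promoter held 39, which placed them at the 94.1 and 95.8 percentile of 32851 promoters, whose median was 7. Lbr held 42 and Syne2 held 35. The internal Sun1 start held only 4 CpG, and the median of the 15 promoters was 15. The SP1 letters were found in at least 1 promoter of 9 of 9 genes, against 38.2% of all genes with a promoter in the table, and in 9 of the 15 promoters, against 35.7% of all promoters. The NFY letters were found in 6 of 9 genes, against 41.1%, and in 7 of the 15 promoters, against 37.4%. These 6 were Sun1, Sun2, Lmna, Emd, Lbr and Tmpo. In the first Sun1 promoter the pair of NFY boxes began at positions -97 and -15 from the start site, counted as 0, and in Sun2 at -85 and -41. In Sun2 the upstream NFY box adjoined an SP1 box and a further pair of SP1 boxes shared 1 base, so that each of these pairs appears as 1 run of capitals. The internal Sun1 start held a single NFY box, at -209, and no SP1 letters. The letters of ETS (CCGGAAG) were found only in an Lmna promoter and those of YY1 (AAGATGG) only in an Lmnb2 promoter, against 9.93% and 7.28% of genes, and those of NRF1 (GCATGCG) in 0 of 9 against 4.01%. A match of letters is a description of the sequence and not of a bound factor.

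Sun1 stood far above the other SUN gene in every library. Read counts were divided by the length of all annotated exons merged, which was 4.133 kb for Sun1 and 3.809 kb for Sun2, to compare genes. The values before this step are normalized counts, which are reads divided by 1 size factor per library, set within each batch. In batch 1 the Sun1 level was 503 ± 6.52 normalized counts per kb (SD, n = 4) in FANS and 533 ± 12.5 (n = 4) in INTACT. The Sun2 level was 54.4 ± 6.32 and 74.6 ± 1.52 in the same libraries. In batch 2 Sun1 reached 442 ± 19.9 (n = 7) and 455 ± 31.6 (n = 4) per kb, and in batch 3 it reached 327 ± 9.71 (n = 7) and 315 ± 6.99 (n = 5). Since each batch was scaled on its own, these levels are not compared between batches. Within every group the mean Sun1 level lay above 98.03 to 98.57% of the 23163 genes with a length, whereas Sun2 lay above 67.4 to 74.0% of them.

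**Figure D1:**
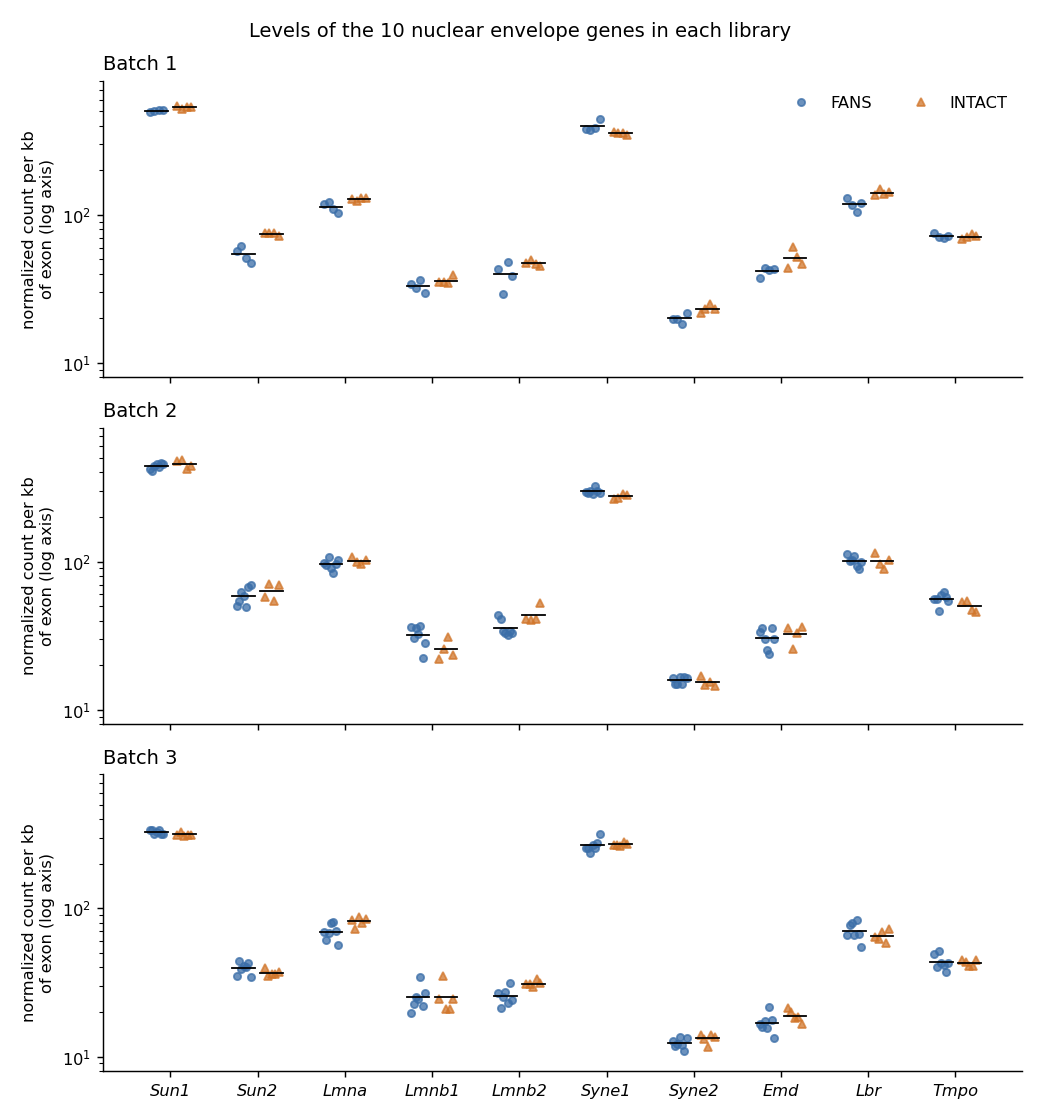
Normalized counts per kb of exon (log axis) of the 10 genes in each of the 31 RNA libraries, by batch, with FANS as circles, INTACT as triangles and group means as bars. Sun1 was the highest of the 10 in 31 of 31 libraries and Syne2 the lowest in 31 of 31.

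The order of the other genes was similar across the groups. Syne1, the giant nesprin gene with 31.331 kb of merged exons, came second, at 397 ± 31.6 per kb in FANS of batch 1 (n = 4), 298 ± 13.1 in batch 2 (n = 7) and 266 ± 25.3 in batch 3 (n = 7). The ranges of Sun1 and Syne1 overlapped in FANS of batch 3 and in no other group, and the ratio of Sun1 to the next gene ran from 1.00 to 1.81 over the 31 libraries. Lbr and Lmna followed, with overlapping ranges in the FANS groups of all 3 batches, at 118 ± 10.5 and 113 ± 8.68 per kb in batch 1. Tmpo and Sun2 came next, and in FANS of batch 1 they lay at 72.1 ± 2.73 and 54.4 ± 6.32 without overlap, whereas in FANS of batches 2 and 3 their ranges overlapped. Emd, Lmnb2 and Lmnb1 formed the lower part of the order, between 33.2 and 41.7 per kb in FANS of batch 1, and their neighbouring ranges overlapped there. Syne2, whose merged exons span 21.718 kb, was last, at 20.02 ± 1.38 per kb in FANS of batch 1. Sun1 alone made up 36.1% ± 0.620 of the summed level per length of the 10 genes in FANS of batch 1 (SD, n = 4), and the group means ran from 35.0 to 39.1%.

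The ratio of Sun1 to Sun2 within a library does not depend on its size factor. Per kb it was 9.35 ± 1.201 in FANS and 7.14 ± 0.205 in INTACT of batch 1 (SD, n = 4 each). It was 7.60 ± 0.800 (n = 7) and 7.28 ± 0.847 (n = 4) in batch 2, and 8.36 ± 0.812 (n = 7) and 8.61 ± 0.549 (n = 5) in batch 3. Over all 31 libraries it ran from 6.33 to 10.8. In batch 1 every FANS library lay above every INTACT library, and in batches 2 and 3 the techniques overlapped. On the log2 scale the ratio differed by -0.38 between INTACT and FANS in batch 1, with p = 0.0286 in the exact two-sided permutation test, the smallest value that 4 against 4 allows, and 0.0857 after adjustment over the 3 batches. The differences were -0.06 (exact permutation p = 0.530) in batch 2 and 0.04 (p = 0.529) in batch 3. Among 6 comparisons between batches within a technique, the lowest exact permutation p was 0.0159, for INTACT of batch 3 against batch 1, with a difference of 0.26. FANS of batch 2 against batch 1 differed by -0.30 (exact permutation p = 0.0212). INTACT of batch 3 against batch 2 differed by 0.24 (exact permutation p = 0.0317). Each of these was 0.0635 after adjustment.

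**Figure D2:**
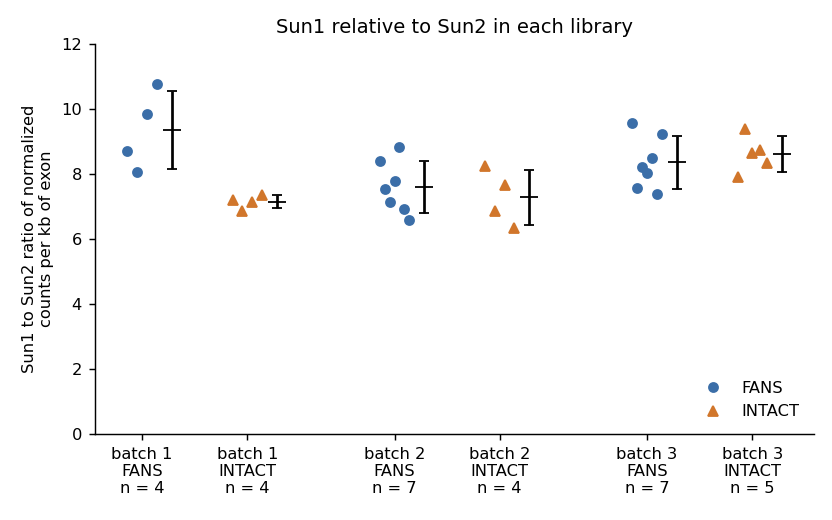
Ratio of Sun1 to Sun2 in normalized counts per kb of exon, 1 point per library, with the mean and SD of each group beside the points. The FANS points of batch 1 lie between 8.07 and 10.8 and the INTACT points between 6.87 and 7.36, and the groups of batches 2 and 3 overlap.

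The question of the series was whether both techniques give the same RNA, and for Sun1, whose product the beads bind through its tag, no difference was called. In batch 1 Sun1 was at 2051, 2061, 2096 and 2107 normalized counts in FANS and at 2257, 2132, 2215 and 2202 in INTACT. The groups did not overlap, but their means were only 1.06-fold apart (log2 fold change 0.08 ± 0.043 (SE), limma adjusted p = 0.139). In batch 2 the FANS libraries had a lowest, median and highest value of 1697, 1835 and 1924, and INTACT had 1970.0, 2007, 1729.8 and 1814. These overlapped (log2 fold change 0.04 ± 0.053, limma adjusted p = 0.769). In batch 3 FANS had 1302, 1358 and 1399, and INTACT had 1298, 1352, 1281, 1294 and 1285, again with overlap (log2 fold change -0.05 ± 0.047, limma adjusted p = 0.668). The 95% intervals of the 3 estimates, by a normal approximation, ran from -0.0014 to 0.17, from -0.06 to 0.14 and from -0.14 to 0.04, so that changes of the 1.5-fold used for calls, 0.585 on the log2 scale, lay outside them. Each library held 1059 to 3335 reads of Sun1. The counting error of a single library, as a root mean square over its group, was 1.83 to 2.80% in the 6 groups. The spread between libraries was 1.30 to 6.95%.

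Sun2, which shares the nuclear side of the LINC complex with Sun1, differed most among the 10 in batch 1. Its values were 217, 235, 196 and 180.3 normalized counts in FANS and 289, 286, 286 and 276 in INTACT, with no overlap. It was 1.37-fold higher in INTACT (log2 fold change 0.46 ± 0.087, limma adjusted p = 1.63e-04), below the 1.5-fold limit. In batch 2 the FANS values had a lowest, median and highest of 188, 224 and 265 and INTACT had 220.1, 269, 208 and 264 (log2 fold change 0.10 ± 0.098, limma adjusted p = 0.663). In batch 3 FANS had 131, 152 and 169 and INTACT had 151, 133, 136, 137 and 142 (log2 fold change -0.10 ± 0.088, limma adjusted p = 0.676). The groups overlapped in both of these batches. A test of the difference between batches over 14332 genes gave an adjusted p of 0.00770 for Sun2 with limma, the only 1 of the 10 genes under 0.05 in the fit of all libraries without replicate blocks, beside 18.1% of all genes tested. Without FANS replicate 7 of batch 3, which had the highest share of reads outside gene features of its group (85.1% against 80.04 to 83.3%), Syne1 was also under 0.05 (adjusted p = 0.0153, against 0.151 with it). The effect of INTACT on Sun2 was lower by 0.36 in batch 2 than in batch 1 and lower by 0.56 in batch 3 than in batch 1, on the log2 scale. For Sun1 the same test gave an adjusted p of 0.253.

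The nesprins differed in direction in batch 1. Syne1 was at 11945, 11778, 12093 and 13904 normalized counts in FANS and at 11386, 11205, 11216 and 10809 in INTACT. It was lower in INTACT by 0.15 ± 0.046 on the log2 scale (limma adjusted p = 0.0103), with no overlap and with 1 FANS library well above the others. Without that library, FANS replicate 4, the estimate was -0.098 (adjusted p = 0.0245), and with quantile normalization it was -0.092 (adjusted p = 0.0486). In batch 2 FANS ran from 9024 over 9195 to 10210.4 (lowest, median and highest), and INTACT had 8326, 8429, 9016 and 8863. There the log2 fold change was -0.11 ± 0.050 (limma adjusted p = 0.290), again with no overlap. In batch 3 FANS ran from 7449.7 over 8006 to 9936, INTACT had 8431, 8359, 8293, 8813 and 8549, and the groups overlapped (log2 fold change 0.03 ± 0.056, limma adjusted p = 0.870). Syne2 was at 431, 434, 401 and 474 in FANS and at 473, 500.2, 542 and 500.4 in INTACT of batch 1. It was higher in INTACT by 0.21 ± 0.068 (limma adjusted p = 0.0151), although 1 FANS value lay just within the INTACT range, and without INTACT replicate 3 the adjusted p was 0.0806. Its differences were -0.04 and 0.11 in batches 2 and 3, with limma adjusted p of 0.823 and 0.551.

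Among the lamins, Lmnb2 gave nearly the same estimate in each batch, 0.27 ± 0.119, 0.28 ± 0.104 and 0.29 ± 0.103 on the log2 scale, but none passed adjustment (limma adjusted p = 0.0799, 0.174 and 0.165). The estimate of batch 1 was 0.13 without FANS replicate 2 (adjusted p = 0.348) and 0.37 without FANS replicate 3 (adjusted p = 0.0138). Its normalized counts were 162, 110.3, 183 and 147 in FANS and 179, 188, 177 and 169.9 in INTACT of batch 1. In batch 2 FANS ran from 120.4 over 129 to 165 and INTACT had 154, 152, 154 and 199. In batch 3 FANS ran from 80.2 over 95.5 to 118 and INTACT had 116, 116, 111, 125 and 119. The groups overlapped in all 3 batches, with most INTACT values in the upper part of the FANS range or above it. Lmna, the source of lamins A and C, was at 396, 412, 367 and 347 in FANS and at 427, 419, 438 and 438 in INTACT of batch 1, with no overlap (log2 fold change 0.18 ± 0.069, limma adjusted p = 0.0417). Lmna no longer passed with DESeq2 (adjusted p = 0.0737), nor with limma without FANS replicate 3, FANS replicate 4 or any 1 of the INTACT libraries (adjusted p = 0.0635 to 0.109). Its estimates were 0.08 and 0.24 in batches 2 and 3 (limma adjusted p = 0.646 and 0.157), with overlap in both. Lmnb1 differed by 0.12, -0.30 and -0.0048 in batches 1, 2 and 3 (limma adjusted p = 0.470, 0.296 and 0.994). It had the lowest counts of the lamin genes, at 63.2 to 105 normalized counts in FANS and 62.6 to 88.5 in INTACT of batch 2, which overlapped.

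Of the inner membrane proteins, Lbr was at 463, 412, 373 and 429 normalized counts in FANS and at 485, 529, 491 and 506 in INTACT of batch 1. The groups did not overlap, and Lbr was 1.201-fold higher in INTACT (log2 fold change 0.26 ± 0.070, limma adjusted p = 0.00397). In batches 2 and 3 it differed by -0.01 and -0.11 (limma adjusted p = 0.984 and 0.626), and the groups overlapped. The test of the difference between batches gave an adjusted p of 0.0652 for Lbr with limma. It was under 0.05 without FANS replicate 1 of batch 1 (0.0426), FANS replicate 7 of batch 3 (0.0121) or INTACT replicate 5 of batch 3 (0.0460). Emd was the weakest of the 10 in normalized counts, at 60.5, 69.9, 68.1 and 68.8 in FANS and 70.1, 97.9, 83.0 and 74.7 in INTACT of batch 1. These did not overlap but missed the threshold (log2 fold change 0.27 ± 0.143, limma adjusted p = 0.144). In batch 3 Emd rested on 22 to 33 reads per library. Tmpo differed by -0.01, -0.16 and -0.02 in batches 1, 2 and 3 (limma adjusted p = 0.891, 0.315 and 0.938), and in batch 1 its FANS libraries lay between 470.1 and 514 and its INTACT libraries between 469 and 501.

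Over the list, 0 of 10 genes were called by limma in batch 1, against 7.97% of 15114 genes (4.03% higher and 3.94% lower in INTACT). The count was 0 of 10 in batch 2, against 0.128% of the genes tested (0.0941% higher, 0.0336% lower), and 0 of 10 in batch 3, against 0.36% (0.0139% higher, 0.346% lower). EdgeR and DESeq2 also called 0 in each batch. At an adjusted p under 0.05 without the fold limit, 4 genes were higher (Sun2, Lbr, Syne2 and Lmna) and 1 was lower (Syne1) in INTACT of batch 1, against 36.1% of all genes (18.6% higher, 17.5% lower). In batches 2 and 3 limma gave 0 in either direction, against 1.14% (0.834% higher, 0.309% lower) and 1.7% (1.18% higher, 0.519% lower). The estimates were above 0 for 8, 5 and 5 of 10 genes in the 3 batches, against 50.9%, 49.8% and 48.9% of all genes. At an unadjusted p under 0.05 the limma counts were 6, 4 and 2 of 10 in the 3 batches, against 44.5, 15.2 and 13.7% of all genes. The techniques did not overlap for 6 of 10 genes in batch 1, 1 in batch 2 and 0 in batch 3, against 33.6%, 2.99% and 1.59% of all genes tested. The median log2 fold change of the 10 was 0.20, 0.02 and 0.01, and that of all genes was 0.01, -0.00 and -0.00. All 10 genes passed the filter on low values in every batch.

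**Figure D3:**
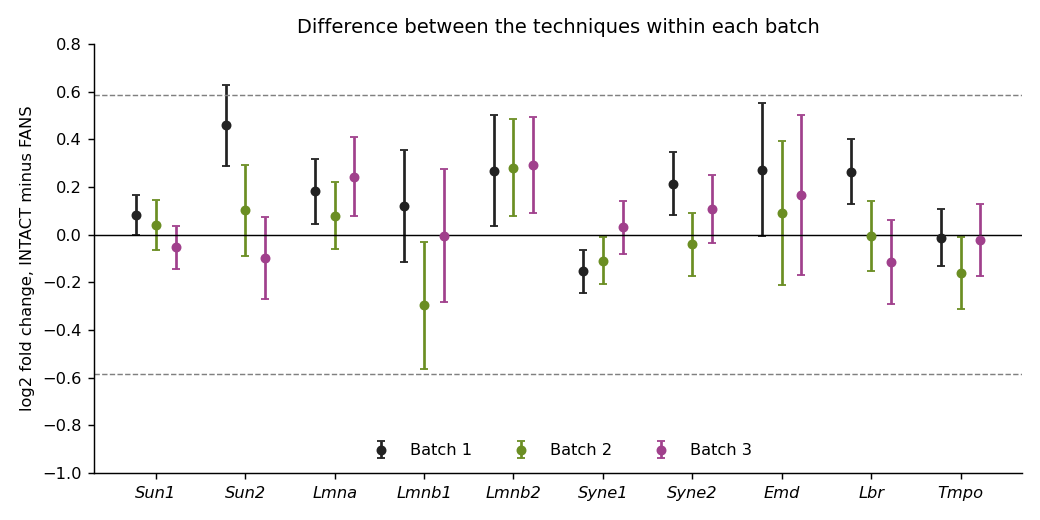
Log2 fold change of INTACT over FANS for each of the 10 genes in batches 1, 2 and 3, with 95% intervals from limma, and dashed lines at the 1.5-fold limit of 0.585 in either direction. The estimates lie between -0.30 and 0.46, with Sun2 of batch 1 the highest.

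Genes around these proteins were described from lists of other inner membrane, linker and lamin processing genes (27 genes, 25 tested) and nuclear pore genes (30, all tested). In the first list Rce1, a protease that trims prenylated proteins such as lamins, was higher in INTACT of batch 1, at 200.1 ± 15.0 against 104 ± 21.6 normalized counts (log2 fold change 0.96 ± 0.127, limma adjusted p = 1.71e-06, n = 4 each). Banf1, which encodes the barrier-to-autointegration factor, was at 27.9 ± 4.63 against 17.04 ± 7.20 (log2 fold change 0.76 ± 0.283, limma adjusted p = 0.0385). Mlip, whose product interacts with lamins A and C, was lower in INTACT, at 224 ± 5.79 against 382 ± 59.1 (log2 fold change -0.75 ± 0.090, limma adjusted p = 3.68e-07). These 3 were the calls of that list in batch 1, 2 higher and 1 lower, with a list median of -0.02, beside 4.03% higher and 3.94% lower of all genes. Rce1 and Mlip were called in 16 of 16 alternatives. Banf1 was not called in 7 of them, which were DESeq2, no filter on low values, and the fits that left out FANS library 2 or 4, or INTACT library 1, 3 or 4 (adjusted p = 0.0770 to 0.120). In batches 2 and 3 limma, edgeR and DESeq2 each called 0, and 1 and 0 of the 25 had an unadjusted limma p under 0.05. The nuclear pore list had 0 calls in each batch with the same 3 tools. At an adjusted p under 0.05 alone, 5 of 30 pore genes were higher and 4 lower in batch 1, beside 18.6% and 17.5% of all genes, among them Nup88, a nucleoporin of the cytoplasmic face, by 0.49, and Nup93, of the inner ring, by -0.35. Unadjusted p-values under 0.05 were found for 12, 4 and 5 of 30 pore genes in the 3 batches, beside 44.5, 15.2 and 13.7% of all genes.

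The genes most like Sun1 across libraries were sought among the 9611 genes that averaged 50 or more normalized counts in every batch, by the mean of the 3 within-batch Pearson correlations of log2 values over 8, 11 and 12 libraries. Among them were Olfm1, a secreted olfactomedin of neurons, with a mean r of 0.85, and Sv2b, a synaptic vesicle glycoprotein, with 0.84. Sun2 ranked 1009th, with a mean r of 0.53, and Syne1 had a mean r of -0.43. Libraries of a batch share their source and differ in technique and depth, so these are descriptions of these libraries.

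In open chromatin, each of the 10 genes had a peak within 3 kb of an annotated start site in 6 of 6 ATAC libraries, which held for 60.1% of 26182 genes of the annotation. The height of a peak is given as its fold enrichment over the local background at the summit. For Sun1 the highest peak was at the first start site, with a height of 17.6, 15.8 and 16.9 in FANS and 14.003, 12.9 and 16.1 in INTACT. The highest INTACT library lay within the FANS range. The summits lay at positions -98 or -93 from the start site in 5 libraries, beside the upstream NFY box shown above, and at -63 in INTACT replicate 2. The -log10 q-value of these peaks was 337 to 395 in FANS and 77.6 to 151 in INTACT. For Sun2 the heights were 12.6, 15.0 and 15.2 in FANS and 9.89, 10.2 and 14.3 in INTACT, again with overlap, and the summits lay at positions 1 to 33.

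Sun1 was highest of the 10 genes by RNA per kb of exon but not by the height of this peak, although its peak lay above that of Sun2 in each of the 6 libraries. Among the genes with a peak, the Sun1 height ranked at the 64.1 to 74.0 percentile in FANS and the 67.0 to 72.1 percentile in INTACT. Sun2 ranked at the 46.2 to 60.0 and the 41.6 to 61.7 percentile. The highest mean in FANS was that of Lbr, 18.4 ± 0.436 (SD, n = 3), followed by Emd with 17.3 ± 0.847 and Sun1 with 16.8 ± 0.924, and the lowest was that of Syne2, 10.0 ± 0.397. For Syne1 the highest peak of the window lay at positions -2815 to -2715 from an annotated start site in 5 of 6 libraries, and at 295 from another in 1 FANS library. The Syne1 heights are therefore not all of the same site.

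Between techniques, 9 of the 10 promoter peaks had a lower mean height in INTACT, with a median log2 difference of -0.19, beside -0.23 over the 15747 genes with a peak in all 6 libraries, of which 91.6% were lower in INTACT. The heights did not overlap for 3 of the 10, Lmnb1, Lmnb2 and Tmpo, all of them lower in INTACT, against 53.7% of all such genes in that direction. Lmnb2 had the largest difference, 15.8 ± 0.976 in FANS and 11.1 ± 1.07 in INTACT (log2 difference -0.51, n = 3 each), with p = 0.1 in the exact two-sided permutation test, the smallest that 3 against 3 allows. For Sun1 the log2 difference was -0.23 (exact permutation p = 0.2). The INTACT libraries had 4, 1 and 4 peaks in the windows of Sun1 and the FANS libraries had 5 each. The lists of FANS held 123596 to 130088 peaks and those of INTACT 99514 to 123895.

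**Figure D4:**
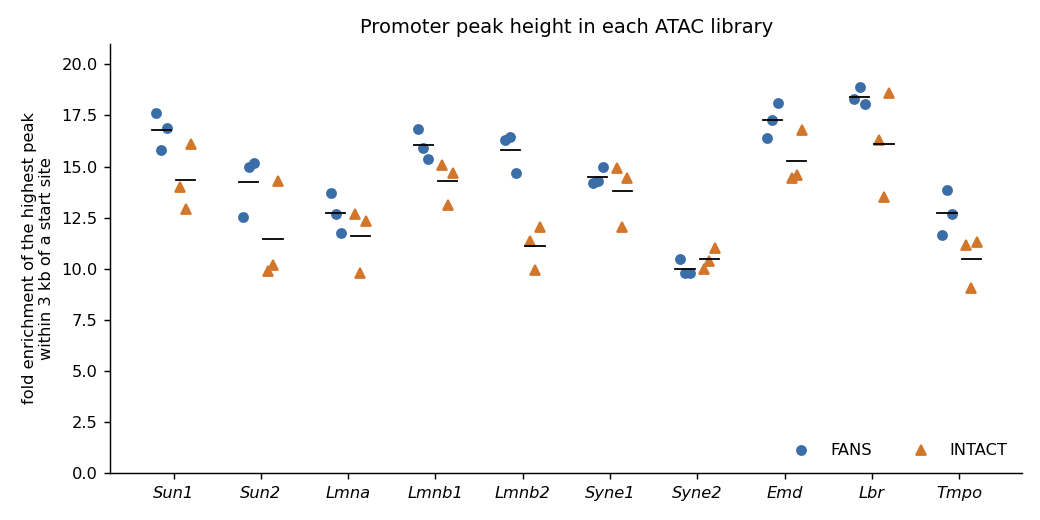
Fold enrichment of the highest peak within 3 kb of a start site for the 10 genes in the 3 FANS (circles) and 3 INTACT (triangles) ATAC libraries, with group means as bars. Lmnb1, Lmnb2 and Tmpo are the genes whose groups do not overlap, and Syne2 is the only 1 with a higher mean in INTACT.

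The fusion of the tag carries Sun1 coding sequence, and reads of it would align to the exons of the gene, so the peaks along Sun1 were also read against its exons. Outside the promoter windows, the gene body of Sun1 held 2 to 3 peaks per FANS library and 1 to 3 per INTACT library. Of these 14 peaks over the 6 libraries, 13 touched an exon by at least 1 base, and for the other 9 genes 161 of 388 did, most of these peaks lying in Syne1. In Sun2, 16 of 17 body peaks touched an exon. Exons make up 9.88% of the Sun1 body outside the windows, 22.3% of that of Sun2 and 5.93% of that of Syne1. A peak touches an exon more easily where this share is larger, so no conclusion is drawn from these counts. The libraries are technical replicates of 1 source, so that the counts hold the same sites more than once. When 50% or more of the peak had to lie on exons, the counts were 2 of 14 for Sun1 and 55 of 388 for the others, that is 14.3 and 14.2%. The same few sites recurred across libraries. The highest was about 29.2 kb after the first start site, on the 7th of 23 merged exons, with a height of 8.12, 9.32 and 8.96 in FANS and 4.58, 4.57 and 5.07 in INTACT. A site about 40.6 kb after the start had heights of 6.03, 7.69 and 6.65 in FANS, and in INTACT it was listed in 2 libraries with 3.82 and 3.59. Both sites were lower in INTACT. So were the sites about 13.9, 14.7 and 16.3 kb after the start, around the internal start site, with heights of 6.70 to 7.61, 4.10 to 4.44 and 5.48 to 6.60 in FANS, and of 4.07 and 4.22, 3.59, and 4.33 in the INTACT libraries that listed them. A narrow peak about 2.9 kb after the start site, on no exon, had a height of 3.05, 3.74 and 3.59 in FANS and of 4.64 and 3.64 in the 2 INTACT libraries that listed it. There the highest value was an INTACT one, as at a weak site near 30.4 kb, with 3.17 in 1 INTACT library and 2.93 and 2.702 in 2 FANS libraries.

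**Figure D5:**
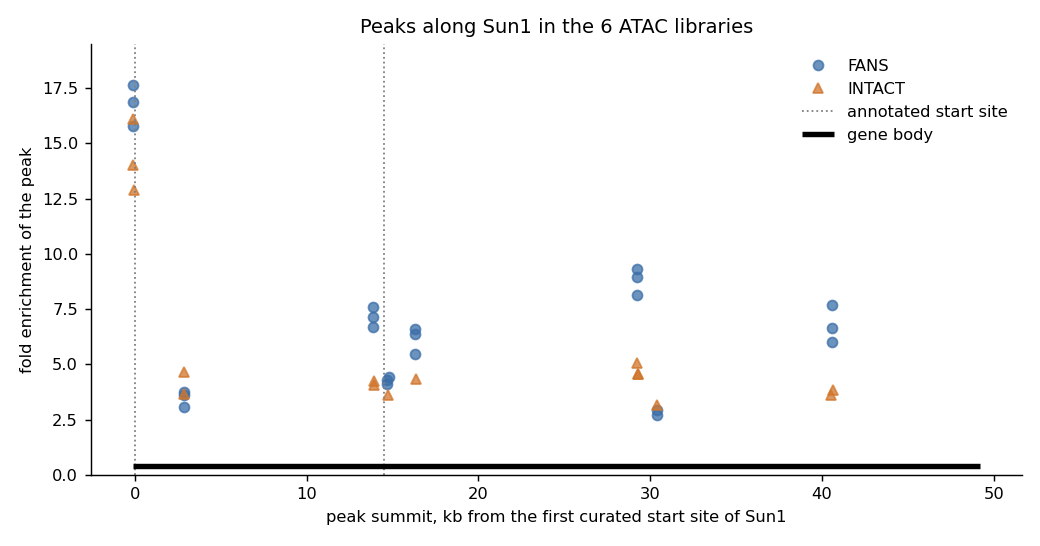
Fold enrichment of each peak along Sun1 in the 6 ATAC libraries against the distance of its summit from the first curated start site in kb, with dotted lines at both annotated start sites and a bar for the gene body. The promoter peaks lie at 12.9 to 17.6 and no other peak of the gene exceeds 9.32.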

How the data were processed

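The authors isolated sfGFP+ nuclei by FANS or INTACT and aligned RNA-seq reads to mm10 with STAR, removed duplicates by molecular identifiers, counted with HTSeq and scaled with DESeq. The deposited RNA values are a signal, normalized counts per gene within a batch, of which 100% came out as whole reads (within 0.1 read) once divided by the worth of 1 read. In 1 library of batch 3 that worth is so close to 1 that the steps of the values hardly test it. The summary rows, which include 71.3 to 85.1% of reads outside gene features, were left out. RNA columns of 2 labelled libraries were not analysed here. Peaks were called per ATAC library with MACS2. The deposited lists give a score, the fold enrichment as a ratio, and, at the summit, -log10 of p and of q (a -log10 q-value), as the authors' caller wrote them. Their read depth is unknown.

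Genes averaging 5 or more normalized counts in a batch were fitted in that batch on the log2(value + 1) scale with limma 3.58.1 (R 4.3.3, trend), and p-values were adjusted by Benjamini-Hochberg over all genes, so fold changes of weakly expressed genes are understated. The fit was checked on simulated data. Alternatives were pseudocounts of 0.5 and 5, no filter, scaling to the 75th percentile, quantile normalization, edgeR 4.0.16 and DESeq2 1.42.0 on whole reads, the replicate number as a block, and each library left out. Exon lengths and start sites are from RefSeq curated transcripts. The named genes were the 10 members, called genes of the envelope lists (up to 6 per list, batch and direction) and the 3 genes most like Sun1, of which 1 is not reported here. Nup88 and Nup93 were named after their values were seen. The members and lists were chosen with earlier results of these data known.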

Additional observations from a re-analysis of the deposited data

Results flagged for a closer look

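The effect of technique on Sun2 differed between batches in the interaction test over 14332 genes (limma adjusted p = 0.00770). It was 0.46 on the log2 scale in batch 1, 0.10 in batch 2 and -0.10 in batch 3, and in batch 1 each of the 4 INTACT libraries lay above each FANS library. In that batch the summed oligodendrocyte and astrocyte marker levels were also higher in INTACT without overlap. Most of the astrocyte sum came from Slc1a2, at a mean of 6377 normalized counts in FANS and 7347 in INTACT (log2 fold change 0.21). The INTACT libraries of the batch were also deeper, and fewer of their reads lay outside gene features (71.3 to 72.7% against 79.4 to 81.7%). The part of any of these in the Sun2 difference was not tested. The adjusted p ran from 0.00312 to 0.0297 over the alternatives run for it, which were pseudocounts of 0.5 and 5, no filter, the replicate block and each library left out. The batch 2 estimate ran from 0.044 without INTACT replicate 2 to 0.17 without INTACT replicate 3, and was 0.24 with the replicate block.

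A library stood apart from its group in 5 of 66 groups examined by Dixon's criterion, where chance flags about 3.3. Syne1 was at 13904 normalized counts in FANS replicate 4 of batch 1, against 11778 to 12093 in the others. It was at 10210.4 in FANS replicate 6 of batch 2, against 9024 to 9428. Lmnb2 was at 199 in INTACT replicate 4 of batch 2, against 152 to 154. In INTACT replicate 2 of batch 3, Sun1 was at 1352 against 1281 to 1298, and Lmnb1 was at 98.7 against 59.2 to 70.0.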

How the results depend on the processing

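The count of called members was 0 in each batch under every alternative run, and the count of other envelope genes called in batch 1 stayed between 2 and 3. With quantile normalization the Sun1 log2 fold change of batch 1 was 0.12 with a limma adjusted p of 0.0202, past the threshold. In batch 1 Lmna no longer passed an adjusted p of 0.05 in 9 of 16 alternatives, although its estimate stayed between 0.14 and 0.22 without single libraries, and Syne2 no longer passed without INTACT replicate 3 (0.18 against 0.21), which left 3 members at an adjusted p under 0.05 in place of 5. Sun1 of batch 2 ran from 0.0081 without INTACT replicate 2 to 0.080 without INTACT replicate 3. Other estimates that passed no threshold also moved by over 1.5 times without single libraries, with ranges of 0.067 to 0.17 for Lmnb1 and 0.18 to 0.34 for Emd of batch 1, 0.046 to 0.10 for Lmna, -0.085 to -0.017 for Syne2 and 0.034 to 0.20 for Emd of batch 2, and 0.0039 to 0.073 for Syne1 and -0.17 to -0.072 for Lbr of batch 3. Estimates near 0 changed sign. Without single libraries, Tmpo of batch 1 ran from -0.032 to 0.011, Tmpo of batch 3 from -0.058 to 0.020, Lbr of batch 2 from -0.066 to 0.049 and Lmnb1 of batch 3 from -0.13 to 0.076. Lmnb1 of batch 3 was 0.0086 with quantile normalization, 0.0059 with edgeR and 0.0020 with DESeq2. Without single libraries the Sun1 to Sun2 log2 ratio, INTACT minus FANS, ran from -0.44 to -0.31 in batch 1, from -0.12 to 0.0035 in batch 2 and from 0.01 to 0.08 in batch 3. Between batches it ran from -0.36 to -0.23 for FANS of batch 2 minus batch 1, from -0.043 to 0.084 for INTACT of batch 2 minus batch 1 and from 0.18 to 0.30 for INTACT of batch 3 minus batch 2. The first passed the adjusted threshold without FANS replicate 6 of batch 2, where the difference was -0.33, and the last without INTACT replicate 1 of batch 2, where it was 0.30 (these leave-one-out values between batches were added after the data were seen). With peaks of -log10 q of at least 10, 100% of the Sun1 body peaks touched an exon, and with 50% or more of the peak required the shares were 14.3% for Sun1 and 14.2% for the other 9. In the -log10 q scale the Sun1 promoter difference was -1.88, a value that moves with depth. The cause of these shifts was not tested.

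The replicate numbers did not pair the libraries of batches 1 and 2, and for batch 3 the pairing was not settled. There the FANS and INTACT libraries numbered 2 each correlated best with the other. Correlations of same-numbered libraries ran from -0.094 to -0.011 in batch 1, from -0.210 to 0.011 in batch 2 and from -0.038 to 0.284 in batch 3, and libraries correlated best with their own number in 0 of 8, 0 of 6 and 3 of 10 cases. With the replicate block the Sun1 log2 fold change was 0.08, 0.13 and -0.07, the Sun1 to Sun2 ratio differed by -0.38, -0.11 and 0.04, and the Sun1 promoter difference was -0.23. Emd of batch 2 became -0.037, and the adjusted p between batches became 0.00312 for Lbr and 0.0107 for Syne1. Members called were 0 in each batch, and 4 members of batch 1 passed an adjusted p under 0.05. All genes called with the block numbered 597 higher and 574 lower in batch 1, 3 and 0 in batch 2, and 29 and 85 in batch 3, against 609 and 596, 14 and 5, and 2 and 50 without it. DESeq2 called 6 and 2 in batch 2.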
